A study of Mus musculus with 4 samples.

Results

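The genes described here are 7 protein kinases of the splicing machinery, Clk1, Clk2, Clk3, Clk4, Srpk1, Srpk2 and Prpf4b, together with Pnisr, which encodes a serine/arginine-rich partner of the nuclear speckle protein pinin. They were chosen by name, as genes known for detained introns, with earlier results of these data known. The study itself reports intron retention in Pnisr and Prpf4b of neural stem cells that lost Tut1. The genes were matched through their Ensembl gene identifiers to symbols in GENCODE M21. They made up 8 of the 14949 genes with an entry in the table and 67 of its 46637 isoform entries that name a gene.

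CLK kinases are nuclear and phosphorylate serine/arginine-rich (SR) proteins, which bind exons and help to choose splice sites. SRPK kinases act on the same proteins mainly in the cytoplasm and promote their import, and PRP4 kinase, the product of Prpf4b, acts on the tri-snRNP, the complex that carries U6 snRNA into the spliceosome. A detained intron is one that stays in a polyadenylated transcript held in the nucleus, and CLK genes are well-known examples. TUT1 is the enzyme that extends U6 snRNA with uridines, and the question of the study that bears on these genes is whether transcripts were spliced differently once Tut1 was lost.

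The samples were 4 cDNA libraries read on a Nanopore instrument, 1 per genotype, from mouse neural stem cells. These were primary cells from the neocortex of floxed embryos, grown as neurospheres with bFGF and EGF, and Cre was delivered as mRNA in lipid nanoparticles (LNP), with cells analysed on day 3 after delivery. The control, Tut1f/f, received LNP without Cre mRNA, and the others received Cre-LNP: Tut1f/f;Cre carried the floxed Tut1 alleles, Trp53f/f;Cre the floxed p53 alleles (written p53f/f in the labels), and Tut1f/f;Trp53f/f;Cre both. Whether a library came from 1 embryo or from pooled embryos was not given. All values below are given in that order, with the control first and the library with both genes floxed last. The deleted genes were read first. Tut1 had 37, 11, 14 and 27 reads, and Trp53, the p53 gene, had 175, 67, 10 and 19. Cre takes a single exon out of the floxed Tut1 mRNA, by the study's account, and reads of the whole gene would still count a transcript without that exon, so Tut1 reads do not measure the deletion directly. They were low in a library whose label leaves Tut1 intact and higher in a library whose label deletes it, so these libraries are named below only by what their labels say, as the library labelled p53 knockout (Trp53f/f;Cre) and the library labelled double knockout (both floxed genes and Cre). Whether the labels of these 2 libraries are in the right order was not tested.

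Reads that named a gene numbered 4244467, 2968653, 3432639 and 2863392. Entries at a genome position with no gene took from 17.2% of all reads in Tut1f/f to 30.2% in another library, and the Tut1f/f library also stood apart in splicing, as the values for all genes below show. Xist, the RNA of the inactive X chromosome, had 0, 44, 49 and 0 reads, and the Y-linked gene Kdm5d had 102, 0, 0 and 96, so sex-linked reads differed within both comparisons of a library with floxed Tut1 and Cre against its own control. Of 8 neural stem cell markers, 7 were read in each library, with a summed level of 11238 to 13009 reads per 1000000 gene reads, and Sox1 was at 0. The sum was mainly Fabp7, whose log2 ratio in Tut1f/f;Cre against Tut1f/f was 0.00, while Hes1 (1.74), Sox9 (1.23), Pax6 (1.17) and Nes (1.13) were past 2-fold higher and Vim stood at -0.74. The median log2 ratio of these 7 markers was 1.13 in that comparison and -0.01 between the libraries labelled double and p53 knockout, and their part in the results below was not tested. Neuronal markers summed to 71.2 to 88.1, astrocyte markers to 297 to 340 and oligodendroglial markers to 134 to 183, with Gfap and Rbfox3 at 0. The astrocyte sum was mainly Slc1a3 (log2 ratio 0.17 in Tut1f/f;Cre against Tut1f/f), S100b stood at 1.07 there without being past 2-fold by the interval, and Aldh1l1 of that list had 187, 16, 11 and 71 reads, a log2 ratio of -3.15 in Tut1f/f;Cre and -3.90 in the library labelled p53 knockout against Tut1f/f. Between the libraries labelled double and p53 knockout Aldh1l1 (2.93) and S100b (1.31) were past 2-fold higher. Of 4 oligodendroglial markers tested, only Sox10 (1.34, on 27 reads against 14) was past 2-fold higher in Tut1f/f;Cre than in Tut1f/f. Cspg4 (0.91), Olig1 (0.38) and Pdgfra (-0.13) were not past 2-fold. No microglial or endothelial marker had a read, and fibroblast markers had 1 read in all. In bulk samples, fewer cells of a type and less RNA per cell cannot be told apart.

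The introns to which the results return are shown by their 5′ splice sites, so that the sites held in the transcripts can be compared. Each line gives the last 10 bases of the exon and the first 15 of the intron, on the gene's strand in GRCm38, taken from GENCODE M21 transcripts that read into the intron. Introns are numbered in the gene's longest coding transcript, and capitals mark the first bases of the intron: GT, or GTAAGT where this common form is complete.
Clk1 intron 3: ttcacacgggGTatgagtgcctttt
Clk1 intron 4: agtgcaagatGTatagaatattttt
Clk1 intron 6: atagtactttGTAAGTatcacatta
Clk1 intron 7: tctgtaaactGTAAGTtcttgatat
Clk4 intron 2: actcggattgGTaaatgacttgcat
Clk4 intron 3: gtcgcattcgGTatgagtggtttgt
Prpf4b intron 2: cttctccgagGTaacctgttcacga
Pnisr intron 3: tggcaaccagGTttgttatttatgt
Pnisr intron 4: tgactatcagGTgaaggatattttg

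Intron 3 of Clk1 (chr1:58421068-58421092, minus strand) and intron 3 of Clk4 (chr11:51272013-51272037, plus strand) both opened with GTATGAGT. Those letters opened 4 of the 7371 introns held whole by annotated retained intron transcripts in the genome, or 0.0543%. They were picked because both introns share them, these introns are among the 7371 where held whole, and a longer string is rarer by construction, so nothing is read from this share. The common form GTAAGT opened introns 6 and 7 of Clk1 (chr1:58417252-58417276 and chr1:58416998-58417022) and 9.66% of the 7371. The other sites lay at chr1:58420106-58420130 for intron 4 of Clk1, chr11:51267322-51267346 for intron 2 of Clk4 and chr13:34884418-34884442 on the plus strand for intron 2 of Prpf4b. In Pnisr they lay at chr4:21857359-21857383 and chr4:21859298-21859322, on the plus strand. All of these introns lay within the coding part of the gene.

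At the level of whole genes, Prpf4b was higher and Clk3 lower in all 3 libraries that received Cre than in Tut1f/f, and the other 6 genes showed smaller or less certain differences. Levels are reads per 1000000 reads that named a gene, scaled by the trimmed mean of M values (CPM). With 1 library per genotype there was no replicate check, and 95% intervals cover counting error only, because PCR copies of 1 molecule could not be told apart. A ratio was counted as past 2-fold when its estimate was at least 2-fold and its interval excluded 1. In Tut1f/f;Cre against Tut1f/f 2 of the 8 genes were past 2-fold, beside 26% of the 9882 genes compared. Between the library labelled double knockout and the library labelled p53 knockout 0 of 8 were, beside 7.24% of all genes. Between the library labelled p53 knockout and Tut1f/f 2 of 8 were, beside 27.8%, and between the library labelled double knockout and Tut1f/f 0 of 8, beside 20.1%. In both pairs left, Tut1f/f;Cre with each of the other Cre libraries, 0 of 8 were, beside 3.35% for the library labelled p53 knockout and 4.49% for the library labelled double knockout. The median log2 ratio of the 8 genes in the first 3 of these comparisons was 0.21, 0.21 and 0.05, and that of all genes was -0.01, 0.03 and -0.02. The comparisons made against Tut1f/f share that library and are not independent of each other. Scaling by library totals in place of the trimmed mean raised every log2 ratio by 0.12 for both comparisons of these made against Tut1f/f and by 0.02 for the other.

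**Figure D1:**
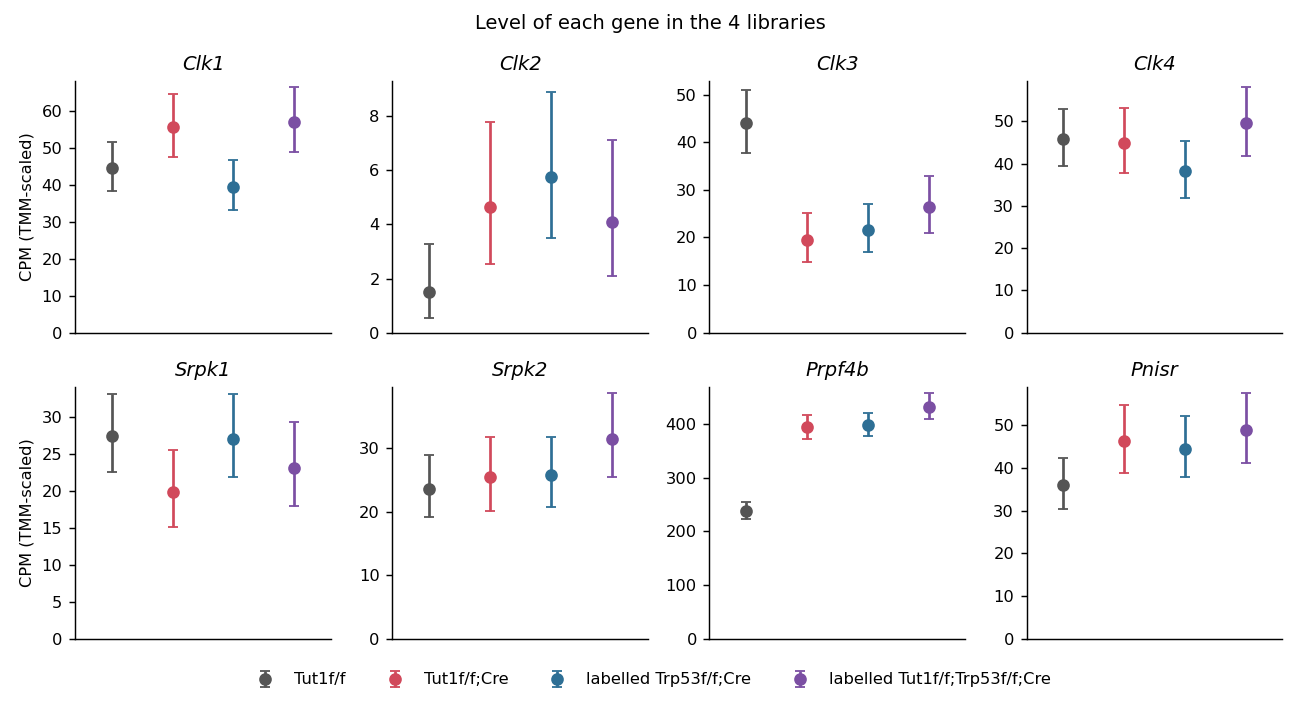
Level of each of the 8 genes in the 4 libraries, in CPM on a linear axis from 0 with its own scale per gene, 1 point per library with its 95% counting interval. Prpf4b stood at 238 CPM in Tut1f/f and at 394 to 432 in the other libraries, Clk3 at 44.0 and 19.5 to 26.4, and Clk2, on 6 to 20 reads, at 1.51 and 4.07 to 5.74.

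Across all 4 libraries, a model with a term for Tut1 and a term for Trp53 status left 1 residual degree of freedom. By edgeR's quasi-likelihood test 0 of the 8 genes were called for Tut1 status, beside 0% of 9882 genes. Unadjusted p was under 0.05 for 0 of the 8 genes and for 171 of all genes, and DESeq2 called 0 as well, with 70 genes at an unadjusted p under 0.05. Estimated log2 changes with Tut1 status ran from -0.46 (SE 0.578) for Clk3 to 0.45 (SE 0.862) for Clk2. For Trp53 status 0 of 8 were called, beside 0.0101% of all genes, with 147 genes at an unadjusted p under 0.05, and DESeq2 called 0 of 8. A model of Tut1 status alone without the library labelled p53 knockout gave an unadjusted p under 0.05 for 3 of the 8 genes and for 2969 of the 10328 tested, and the smallest edgeR adjusted p among the 8 was 0.085. In that model the arm with Tut1 intact is the Tut1f/f library alone, which is assumed to vary like the others and also differs from them in Cre mRNA.

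Isoform usage, the percentage of a gene's reads assigned to an isoform, differed between libraries in 5 of the 8 genes. The reads of each isoform and of the rest of its gene were compared by a two-sided Fisher's exact test, adjusted over all isoforms of the comparison by the Benjamini-Hochberg method, and called where the usage changed by 10 percentage points or more with an adjusted p below 0.05. Such a test compares the libraries and not the conditions. In Tut1f/f;Cre against Tut1f/f 10 of the 40 isoforms tested were called, 5 higher and 5 lower, beside 9.35% of 17089 isoforms. Between the libraries labelled double and p53 knockout 2 of 36 were called, 1 in each direction, beside 1.4% of 16176. Between the library labelled p53 knockout and Tut1f/f 8 of 39 were called, 4 in each direction, beside 9.9%, and between the library labelled double knockout and Tut1f/f 8 of 41, beside 6.96%. Without Tut1f/f few were: between Tut1f/f;Cre and the library labelled p53 knockout 1 of 37, beside 0.243%, and between the library labelled double knockout and Tut1f/f;Cre 0 of 36, beside 0.163%.

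Transcripts that Ensembl classes as retained intron (the biotype retained_intron) took a larger share of the reads of Clk1, Clk4 and Prpf4b in each library that received Cre. By the same exact test, over genes, 3 of 4 were called in Tut1f/f;Cre against Tut1f/f, all higher, beside 23% of 1215 genes. The counts were 3 of 4 for the library labelled p53 knockout against Tut1f/f, beside 21.4%, and 3 of 4 for the library labelled double knockout against Tut1f/f, beside 18.7%. They were 0 of 3 between the libraries labelled double and p53 knockout, beside 1.2%, and 0 of 3 in each of the remaining pairs, beside 0.152% and 0%. The median difference of the 4 genes from Tut1f/f was 25.6 points in Tut1f/f;Cre and 20.5 points in the library labelled p53 knockout, and that of all genes tested was 3.59 and 2.54 points. Clk2 had no such read in any library. The call for Prpf4b depends on the class used. With transcripts classed as processed counted together with retained intron transcripts, the share of Prpf4b was 77.5%, 79.0%, 83.9% and 81.0%, which is 1.45 points higher in Tut1f/f;Cre than in Tut1f/f (exact test adjusted p = 0.607) and 6.44 points higher in the library labelled p53 knockout, and neither was called.

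The biotype does not mark every transcript that reads into an intron, so exon structure was used as an alternative chosen after seeing the data. Counting each plain Ensembl transcript that holds all or part of an intron of the longest coding transcript, 4 of 6 genes were called in Tut1f/f;Cre against Tut1f/f, all higher, beside 19.6%. The gene added was Pnisr, with 43.4%, 62.1%, 49.0% and 55.6% (exact test adjusted p = 0.00973). For the library labelled p53 knockout against Tut1f/f 3 of 6 were called, beside 18.4%, and between the libraries labelled double and p53 knockout 1 of 6 was, beside 1.65%, namely Clk1, which was lower by this count (-18.7 points, exact test adjusted p = 0.0472).

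Clk1 (chr1:58410189-58424066, minus strand) had 178, 169, 138 and 169 reads, or 44.8, 55.8, 39.6 and 57.3 CPM. The levels lay close together, and no pair of libraries was past 2-fold. The make-up of these reads was not alike. Retained intron transcripts held 32, 105, 83 and 81 reads, or 18.0%, 62.1%, 60.1% and 47.9% of the gene. The share in Tut1f/f was below that in the other libraries, by 44.2 points in Tut1f/f;Cre (95% interval 34.4 to 52.7, exact test adjusted p = 1.88e-15), 42.2 points in the library labelled p53 knockout (adjusted p = 6.32e-13, exact test) and 30.0 points in the library labelled double knockout (adjusted p = 9.99e-08, exact test). The last of these was 12.2 points below the library labelled p53 knockout, with an interval of -23.0 to -1.01 points and an exact test adjusted p of 0.314.

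Most of this share in each library was Clk1-204, a transcript that keeps introns 3, 4 and 6 whole. It ends inside intron 7, short of the exons that complete the kinase domain. It had 25, 99, 83 and 71 reads, or 14.0%, 58.6%, 60.1% and 42.0% of Clk1. Clk1-201, the full-length coding transcript, had 55, 22, 12 and 43 reads, or 30.9%, 13.0%, 8.70% and 25.4%. Its share was high in Tut1f/f and in the library labelled double knockout and low in the others, which is also how Tut1, Xist and Kdm5d reads separated the libraries. Their part in this difference was not tested. Clk1-201 was lower in Tut1f/f;Cre than in Tut1f/f by 17.9 points (exact test adjusted p = 0.00102) and higher in the library labelled double knockout than in the library labelled p53 knockout by 16.7 points (exact test adjusted p = 0.0111). Clk1-210, which skips exon 4 and is classed as a target of nonsense-mediated decay (NMD), had 33, 15, 12 and 13 reads, and Clk1-202, a retained intron transcript of the 3′ end of the gene, had 7, 6, 0 and 10.

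A further entry of Clk1 was a variant of Clk1-212, an annotated transcript that keeps introns 3 and 4, and the table does not give the exons of the variant. It moved the other way, with 43, 8, 15 and 16 reads, or 24.2%, 4.73%, 10.9% and 9.47% (Tut1f/f;Cre against Tut1f/f -19.4 points, exact test adjusted p = 8.19e-06). With this variant counted as a retained intron transcript, the share of Clk1 rose by 24.7 points in place of 44.2 in Tut1f/f;Cre, and by 28.9 in place of 42.2 in the library labelled p53 knockout. In the library labelled double knockout it rose by 15.3 in place of 30.0 (exact test adjusted p = 0.0214).

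When the reads of Clk1 were divided, the parts moved in opposite directions in Tut1f/f;Cre and in the library labelled p53 knockout. Retained intron transcripts stood at 8.05, 34.7, 23.8 and 27.5 CPM, and all other reads of the gene at 36.7, 21.1, 15.8 and 29.8 CPM. The log2 ratio of Tut1f/f;Cre to Tut1f/f was 2.11 (1.52 to 2.73) for the first part and -0.80 (-1.24 to -0.36) for the second. In the library labelled double knockout the second part gave -0.30 (-0.70 to 0.09) relative to Tut1f/f, an interval that includes no change. In Tut1f/f;Cre against Tut1f/f, retained intron reads were past 2-fold higher in 36.9% of the 1215 genes tested. All other reads were past 2-fold lower in 15.6% of them. Between the libraries labelled double and p53 knockout, retained intron reads of Clk1 had a log2 ratio of 0.20 (-0.25 to 0.66) and the other reads one of 0.92 (0.42 to 1.43). The division by reads was chosen after the shares had been seen.

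Clk4 (chr11:51261730-51281766, plus strand), the closest relative of Clk1 in the family, had 182, 136, 133 and 146 reads, or 45.8, 44.9, 38.2 and 49.5 CPM. Its level differed little, with a log2 ratio of Tut1f/f;Cre to Tut1f/f of -0.03 (-0.36 to 0.30). Retained intron transcripts held 20, 44, 38 and 35 reads, or 11.0%, 32.4%, 28.6% and 24.0%. The share rose by 21.4 points in Tut1f/f;Cre (95% interval 12.3 to 30.4, exact test adjusted p = 4.44e-05) and by 17.6 points in the library labelled p53 knockout (exact test adjusted p = 0.000723). Between the libraries labelled double and p53 knockout it differed by -4.60 points (-14.9 to 5.68, exact test adjusted p = 0.876).

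In Clk4 a single short transcript carried most of the difference from Tut1f/f. Clk4-206, which ends inside intron 2 and so holds only the first exons of the gene, had 7, 32, 24 and 18 reads, or 3.85%, 23.5%, 18.0% and 12.3%. It was lowest in Tut1f/f, and the exact test adjusted p was 5.49e-06 for Tut1f/f;Cre and 0.000615 for the library labelled p53 knockout. Clk4-207, which ends inside intron 3, had 12, 10, 12 and 15 reads. Coding transcripts took 56.6%, 55.9%, 55.6% and 56.2% of Clk4. Among them the full-length Clk4-201 had 72, 44, 47 and 48 reads and differed in usage from Tut1f/f by -7.21 points in Tut1f/f;Cre (-17.5 to 3.50). Clk4-203, which skips exons 2 and 4, had 27, 28, 22 and 30 reads and differed by 5.75 points (-2.61 to 14.5), so the intervals of both include no change. Isoforms named only by a representative read, with no Ensembl transcript, the main one with 19, 8, 7 and 11 reads, took 32.4%, 11.8%, 15.8% and 19.9%, and fell in Tut1f/f;Cre (exact test adjusted p = 0.000494, beside 7.28% of 3848 genes called for this class). Reads of the transcript Gm25082 lie on the same strand within Clk4 (12 in all), and how the counting treated them was not stated.

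**Figure D2:**
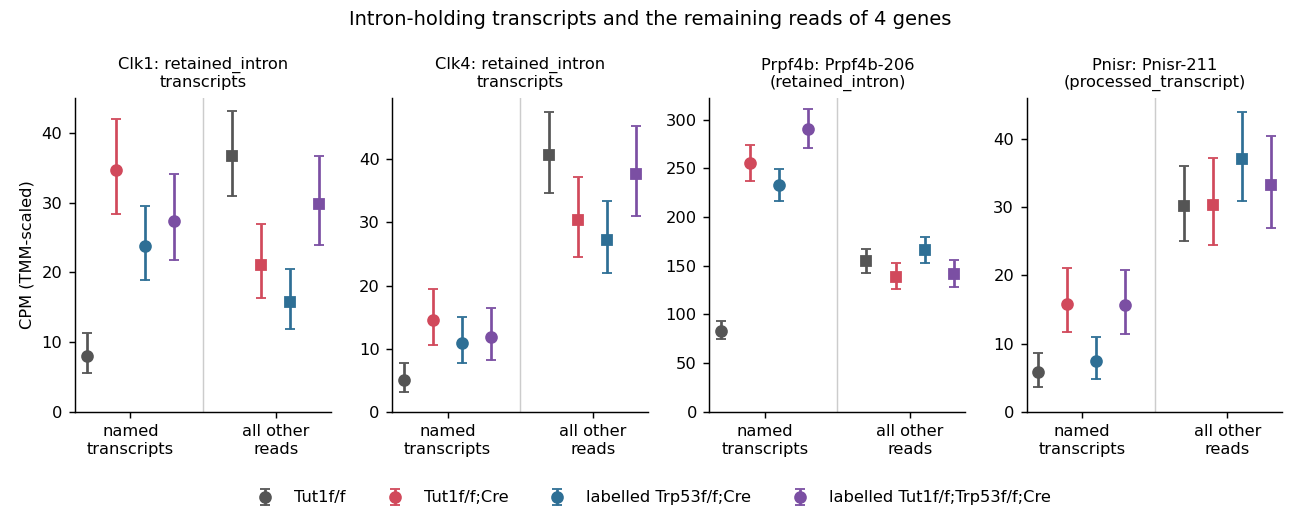
Reads of Clk1, Clk4 and Prpf4b divided into retained intron transcripts and all other reads of the gene, and of Pnisr into Pnisr-211 and the rest, in CPM for the 4 libraries with 95% counting intervals. Retained intron reads stood at 8.05 CPM for Clk1, 5.03 for Clk4 and 83.5 for Prpf4b in Tut1f/f and higher in each library that received Cre, and Pnisr-211 was higher in the 2 libraries labelled with floxed Tut1 and Cre, at 15.8 and 15.6 CPM, than in the others, at 5.78 and 7.46.

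Clk3 (chr9:57750624-57765860, minus strand) was the only one of the 8 genes past 2-fold lower than Tut1f/f. It had 175, 59, 75 and 78 reads, or 44.0, 19.5, 21.5 and 26.4 CPM. Tut1f/f was above the other libraries, whose counting intervals overlapped one another. Relative to Tut1f/f, the log2 ratio was -1.18 (-1.63 to -0.74) in Tut1f/f;Cre, -1.03 (-1.44 to -0.63) in the library labelled p53 knockout and -0.74 (-1.14 to -0.34) in the library labelled double knockout. With library totals the second of these was -0.92 and no longer past 2-fold. The leading isoform was a variant of the coding Clk3-201, with 96, 25, 43 and 38 reads (54.9%, 42.4%, 57.3% and 48.7%). A variant of the retained intron transcript Clk3-207, which keeps intron 3, had 30, 11, 9 and 11 reads. The coding Clk3-205 had 16, 4, 6 and 9, and isoforms named only by a read had 27, 13, 8 and 13 and 6, 6, 9 and 7, and no isoform of Clk3 was called in any pair. Edc3 overlaps Clk3 on the opposite strand with 137 reads in all, and since use of strand in the counting was not stated, the level of Clk3 is uncertain to that extent.

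Clk2 (chr3:89164795-89176921, plus strand) was sparsely read, with 6, 14, 20 and 12 reads, or 1.51, 4.62, 5.74 and 4.07 CPM. Relative to Tut1f/f, Clk2 had a log2 ratio of 1.62 (0.15 to 3.28) in Tut1f/f;Cre and one of 1.93 (0.56 to 3.53) in the library labelled p53 knockout. Both intervals were wide, and both entries of the gene, Clk2-202 and Clk2-203, were coding. Clk2-203 had 3, 9, 13 and 7 reads.

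Srpk1 (chr17:28587648-28622709, minus strand) had 109, 60, 94 and 68 reads, or 27.4, 19.8, 27.0 and 23.0 CPM, with no pair past 2-fold. Its isoforms were exchanged more than its level changed. A variant of Srpk1-204, the full-length coding transcript, had 54, 15, 15 and 18 reads, or 49.5%, 25.0%, 16.0% and 26.5%. Against Tut1f/f it fell by 24.5 points in Tut1f/f;Cre (exact test adjusted p = 0.0176) and by 33.6 points in the library labelled p53 knockout (exact test adjusted p = 1.08e-05). An isoform named only by a read had 4, 10, 32 and 16 reads, or 3.67%, 16.7%, 34.0% and 23.5%, and rose in both (exact test adjusted p = 0.0445 and 3.07e-07). The coding Srpk1-210 had 9, 10, 12 and 16 reads and a variant of the retained intron transcript Srpk1-212 had 18, 11, 9 and 8, and neither was called. Without that variant, retained intron transcripts were few, with 10, 2, 5 and 4 reads, and the difference of -5.84 points in Tut1f/f;Cre was not called. Srpk1 was thus unlike Clk1, Clk4 and Prpf4b in the sign of this value, although the structure of its transcripts gave 5.73 points when any transcript reading into an intron was counted.

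Srpk2 (chr5:23503264-23684617, minus strand) had 94, 77, 90 and 93 reads, or 23.6, 25.4, 25.8 and 31.5 CPM, and none of its isoforms was called in any of the comparisons. Nearly all of its reads, 92 of 94, 77 of 77, 88 of 90 and 93 of 93, were assigned to isoforms named by a read. The main one had 33, 42, 42 and 51 reads, or 35.1%, 54.5%, 46.7% and 54.8%, with an exact test adjusted p of 0.0751 for Tut1f/f;Cre against Tut1f/f. The next had 25, 17, 21 and 18 reads and another 22, 8, 14 and 14. Only 2, 0, 2 and 0 reads were of a retained intron transcript. Kmt2e overlaps Srpk2 on the opposite strand with 942 reads in all, so the level of Srpk2 is uncertain. Reads at positions inside the gene that name no gene were also many for Srpk2, with 95, 280, 338 and 233, or 50.3%, 78.4%, 79.0% and 71.5% of these and the gene's own reads together. Pnisr had 133, 187, 215 and 128 of them, more than Srpk2 in Tut1f/f and fewer in the other libraries. Reads of this kind were past 2-fold higher than in Tut1f/f in 65.6%, 60.4% and 58.6% of 6484 genes in the libraries that received Cre, and in 5, 5 and 4 of the 7 genes here that could be compared, since Clk3 had no such read.

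Prpf4b (chr13:34875302-34906064, plus strand) was the most deeply read of the 8 genes and is therefore the best measured, with 947, 1193, 1389 and 1275 reads, or 238, 394, 399 and 432 CPM. Relative to Tut1f/f, the log2 ratio of the gene was 0.73 (0.60 to 0.85) in Tut1f/f;Cre, 0.74 (0.62 to 0.86) in the library labelled p53 knockout and 0.86 (0.74 to 0.98) in the library labelled double knockout. None was past 2-fold. Prpf4b-206, its retained intron transcript, which spans the first exons and ends 339 bases into intron 2, had 332, 773, 811 and 857 reads, or 35.1%, 64.8%, 58.4% and 67.2%. It was the smaller part of the gene in Tut1f/f and the larger part in every other library.

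The higher level of Prpf4b lay in that transcript and not in the sum of the remaining reads. Prpf4b-206 stood at 83.5, 255, 233 and 290 CPM and all other reads at 155, 139, 166 and 142 CPM. For Tut1f/f;Cre against Tut1f/f the log2 ratio was 1.61 (1.42 to 1.80) for Prpf4b-206 and -0.16 (-0.34 to 0.02) for the rest. In the library labelled p53 knockout against Tut1f/f the values were 1.48 and 0.10 (-0.07 to 0.27). Between the libraries labelled double and p53 knockout, Prpf4b-206 rose by 8.83 points (5.16 to 12.5, exact test adjusted p = 0.000599), short of the 10 points set for a call.

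Within the rest, the level of Prpf4b-210 followed the labels for Tut1, and its usage did so only in part. It is a noncoding transcript of the 3′ end of the gene and had 363, 152, 328 and 161 reads, or 38.3%, 12.7%, 23.6% and 12.6%. In CPM it stood at 91.3, 50.2, 94.1 and 54.6, high in the 2 libraries labelled with Tut1 intact and low in the others. Tut1f/f;Cre against Tut1f/f gave a log2 ratio of -0.86 (-1.15 to -0.59). The ratio was -0.79 (-1.07 to -0.51) between the libraries labelled double and p53 knockout and 0.04 (-0.18 to 0.26) for the library labelled p53 knockout against Tut1f/f. In usage it differed by -25.6 points for Tut1f/f;Cre against Tut1f/f, by -11.0 points between the libraries labelled double and p53 knockout (exact test adjusted p = 1.9e-10), and also by -14.7 points (-18.5 to -10.9) between the library labelled p53 knockout and Tut1f/f, both labelled with Tut1 intact. Its difference between Tut1f/f;Cre and the library labelled p53 knockout was -10.9 points (exact test adjusted p = 4.81e-09). Prpf4b-208, which is classed as an NMD target though it holds the full coding length of 3021 bases, had 110, 121, 114 and 149 reads, and an isoform named only by a read had 103, 130, 109 and 93. Whole-gene reads of Tut1 did not follow these labels.

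Pnisr (chr4:21847583-21876475, plus strand) had 143, 140, 155 and 144 reads, or 36.0, 46.2, 44.5 and 48.8 CPM, with no pair past 2-fold. None of its annotated transcripts is classed as retained intron. Pnisr-211, a transcript classed only as processed, keeps intron 3 whole and ends 1161 bases into intron 4, and it had 23, 48, 26 and 46 reads, or 16.1%, 34.3%, 16.8% and 31.9%. It was high in the 2 libraries labelled with floxed Tut1 and Cre and low in the others.

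The share of Pnisr-211 was 18.2 points higher in Tut1f/f;Cre than in Tut1f/f (8.12 to 27.9, exact test adjusted p = 0.00644) and 15.2 points higher in the library labelled double knockout than in the library labelled p53 knockout (5.46 to 24.6), where the exact test adjusted p of 0.0767 missed the threshold. It passed at higher read minimums, with at least 20 reads per isoform and 50 per gene and library (exact test adjusted p = 0.0498), and among plain Ensembl transcripts only (26.4 points, exact test adjusted p = 0.0159). Between the library labelled p53 knockout and Tut1f/f it differed by 0.69 points (-7.86 to 9.10). Its level gave log2 ratios of 1.45 (0.71 to 2.24), 1.06 (0.34 to 1.82) and 0.37 (-0.50 to 1.24) in these 3 comparisons. All other reads of Pnisr stood at 30.2, 30.4, 37.0 and 33.2 CPM. Among them Pnisr-207, from the 3′ part of the gene, had 33, 34, 38 and 21 reads, and Pnisr-208 had 8, 5, 20 and 6. An isoform named only by a read had 39, 18, 27 and 28 reads, or 27.3%, 12.9%, 17.4% and 19.4%. It fell by 14.4 points in Tut1f/f;Cre against Tut1f/f (-23.5 to -5.09, exact test adjusted p = 0.0242) and differed by 2.03 points (-6.76 to 10.9) between the libraries labelled double and p53 knockout, so it did not follow the labels for Tut1 as Pnisr-211 did. Another had 23, 17, 20 and 16 reads.

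**Figure D3:**
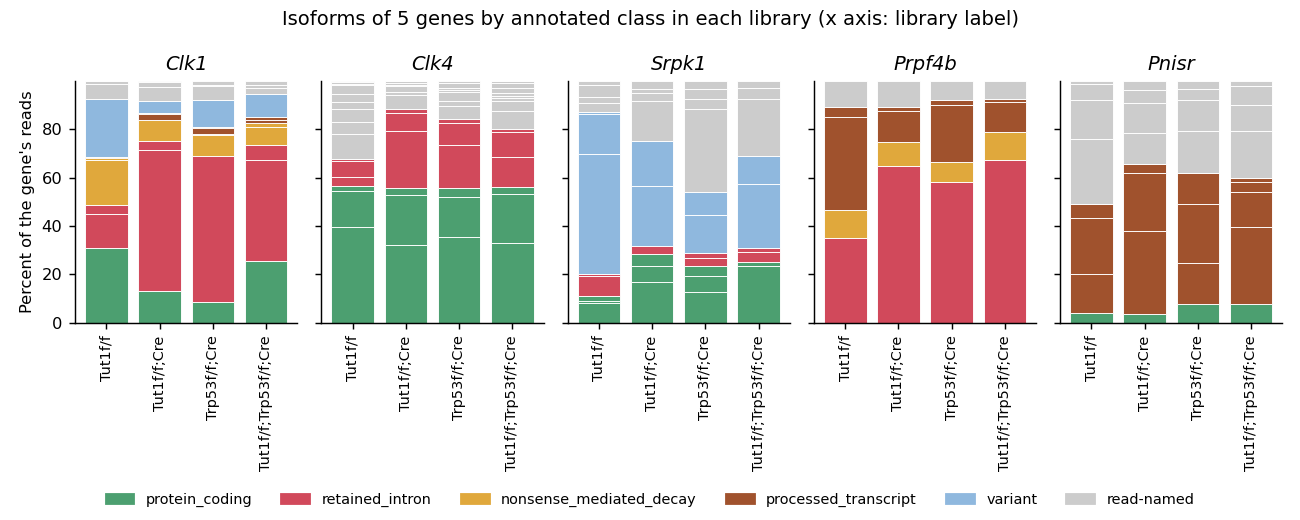
Make-up of the reads of Clk1, Clk4, Srpk1, Prpf4b and Pnisr in each library, in percent of the gene's reads, with bars coloured by annotated class, by variant of an Ensembl transcript or by isoform named by a read, and white lines between isoforms. The retained intron part grew from 18.0% in Tut1f/f to 47.9% or more in Clk1, from 11.0% to 24.0% or more in Clk4 and from 35.1% to 58.4% or more in Prpf4b.

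The 2 comparisons of a library with floxed Tut1 and Cre against its control differed from each other. Their controls differ in Cre mRNA as well as in Trp53, since Tut1f/f alone received none. Xist and Kdm5d reads also ran in opposite directions in the 2 comparisons. The Trp53 label, Cre delivery, sex-linked differences and the single Tut1f/f library therefore cannot be told apart here. An exchange of the labels double and p53 knockout, which was not tested, would reverse the sign of the second comparison. The log odds ratio of the retained intron share in Tut1f/f;Cre against Tut1f/f and that between the libraries labelled double and p53 knockout, which have no library in common, were compared by a Wald test on reads. The adjusted p was 2.77e-11 for Clk1, 2.98e-10 for Prpf4b and 0.00109 for Clk4, and 28.5% of 1080 genes had one under 0.05. For single isoforms, 12.6% of 14142 did. These included Clk1-204 (adjusted p = 8.83e-14), Clk1-201 (7.75e-06), Clk4-206 (0.000221) and Prpf4b-210 (0.000191), and did not include Pnisr-211 (0.867).

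**Figure D4:**
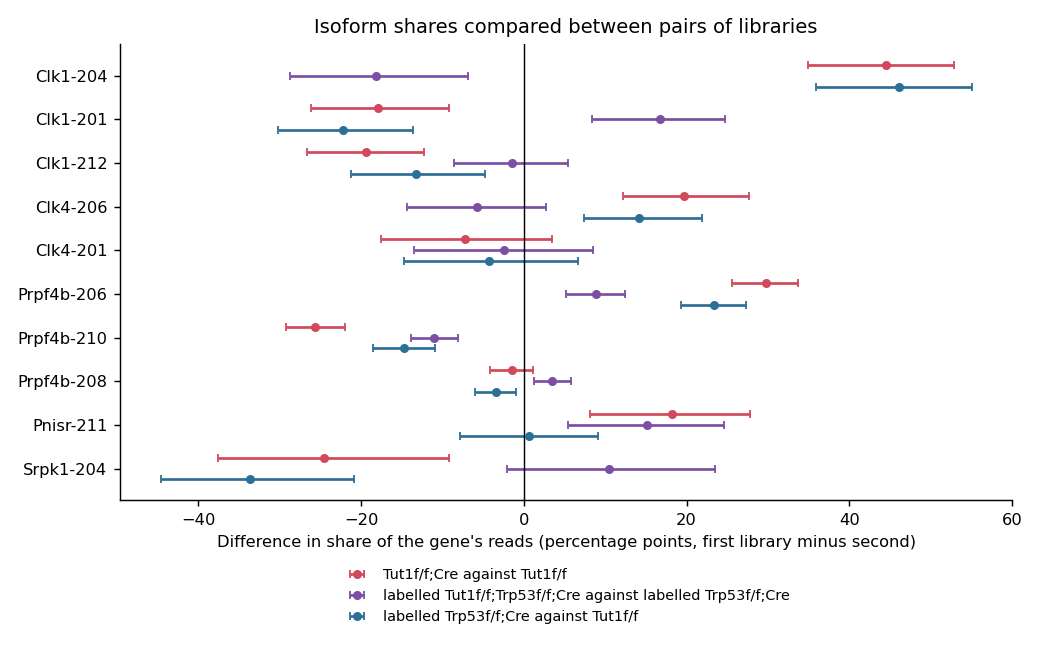
Difference in share of the gene's reads, in percentage points with 95% counting intervals, for 10 isoforms in 3 comparisons of libraries (Clk1-212 and Srpk1-204 stand for variants of those transcripts). Clk1-204 stood at 44.5 points in Tut1f/f;Cre against Tut1f/f and at -18.1 between the libraries labelled double and p53 knockout, while Pnisr-211 stood at 18.2 and 15.2.

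In the model with terms for Tut1 and Trp53 status, edgeR's test of differential isoform usage called 0 of the 48 isoforms tested in the 8 genes for Tut1 status, beside 0% of 21738. On simulated reads this test recovered 17% of the genes whose leading isoform was lowered by 40 percent. The lack of calls therefore does not show that usage was unchanged. At an unadjusted p under 0.05 and at least 10 points it found 53 isoforms in all and 1 in these genes, Prpf4b-210 (-18.3 points, unadjusted p = 0.0293). For the retained intron share it called 0 of 4, beside 0% of 1603 genes, with 14 at an unadjusted p under 0.05 and at least 10 points, none of them in this set. Without the library labelled p53 knockout, in a model of Tut1 status alone, 4 of the 48 isoforms and 3 of the 4 shares were called, and 294 isoforms and 151 shares among all genes, again with the Tut1f/f library alone, without Cre mRNA, as the arm with Tut1 intact. Leaving out any other library gave 0 for both in these genes.

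The genes on which these kinases act, or with which they share a complex, are given by their counts past 2-fold beside those of all genes, and no list was tested. Among all genes 12.7% were past 2-fold higher in Tut1f/f;Cre against Tut1f/f and 13.3% lower. Of 12 SR protein genes tested, 1 was past 2-fold higher in Tut1f/f;Cre against Tut1f/f, Srsf9 with a log2 ratio of 2.25, and 2 were lower, Srsf5 (-1.21) and Tra2b (-1.10). Of 14 pinin and speckle partners 3 were higher and 0 lower: Son (2.68), Srrm1 (1.54) and Acin1 (1.13). Of 12 tri-snRNP genes, whose products include the substrates of PRP4 kinase, 3 were higher, Sart1 (2.32), Snrnp200 (1.79) and Prpf8 (1.24), and 1 was lower, Eftud2 (-2.96). Of 11 genes in a list of other kinases, phosphatases and their subunits, which also holds the splicing factor gene Sf3b1, 1 was higher, Cdk13 (1.83). Between the libraries labelled double and p53 knockout, 0 SR protein genes and 0 pinin partners were past 2-fold, and of the tri-snRNP genes 3 were higher, Prpf3 (1.67), Prpf8 (1.27) and Eftud2 (1.17), the last with 214, 21, 21 and 40 reads over the 4 libraries. In the list of other kinases and phosphatases 1 was higher, Ppp1cb (1.37), and 1 lower, Dyrk3 (-1.81), beside 4.68% of all genes higher and 2.56% lower. edgeR called none of these list genes for Tut1 status.

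The retained intron share could be tested for few of these partners, and no rate was read from the counts. In Tut1f/f;Cre against Tut1f/f, where 256 of the 1215 genes tested were called higher, it was called higher for 1 of 6 SR protein genes, Srsf11, with 18.3%, 46.7%, 41.5% and 56.9% over the 4 libraries, and the median over the 6 was -0.37 points. Srsf2 of the same list had 83.1%, 67.1%, 77.9% and 59.7% and was not called. Prpf31, a tri-snRNP protein and a substrate of PRP4 kinase, had 29.6%, 66.7%, 53.9% and 62.5%, and Thrap3 of the speckle list had 16.8%, 37.4%, 38.4% and 26.0%. Another gene of that list, Luc7l, was called lower, with 19.6%, 6.31%, 7.14% and 4.90%, so that 1 of 10 was higher and 1 lower, beside 24 of the 1215 genes called lower. In Srsf11, Prpf31 and Thrap3 the lowest share was in Tut1f/f.

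Genes with the profile most like each of the 8 were found by the Euclidean distance between log2 (CPM + 0.5) values centred over the 4 libraries, among 6690 genes with a mean of at least 10 CPM. The nearest to Prpf4b was Ndufb4 (distance 0.0140), the nearest to Clk4 was 4921524J17Rik (0.0201) and the nearest to Clk3 was Phb (0.0525). For the remaining genes they were Nap1l2 for Clk1, Rora for Clk2, Gadd45gip1 for Srpk1, Snhg5 for Srpk2 and Ccdc47 for Pnisr, at 0.0295 to 0.0567. With 4 libraries such likeness is easily reached, and 398 to 2320 genes lay within 0.5 of each of the 8.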

How the data were processed

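The authors deposited 1 table of whole-number read counts per isoform and library, unnormalised. The submitters' processing notes name the mm10 build. The study's methods name minimap2, an Ensembl transcriptome and FLAIR for long reads of dissected pallium. The tool and annotation behind this table of neural stem cells, and its use of strand, were not given in the sources used here. Of 21893 plain Ensembl transcripts, 21814 (99.6%) were found in GENCODE M21 (GRCm38), which also gave symbols for 14939 of 14949 genes, biotypes and exon structures. Entries naming no gene (17.2% to 30.2% of reads) were left out of library sizes and tests.

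The members and lists were chosen with earlier results of these data known. The text names the 8 genes, their isoforms at 10% or more of the gene in a library with at least 20 gene reads, their retained intron and NMD isoforms with at least 10 reads, up to 4 members of each list past 2-fold, and the nearest genes by profile. The deleted genes, the genes Xist and Kdm5d, and list genes named for their retained intron share were added after their values were seen.

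Gene counts were fitted with edgeR 4.0.16 (TMM, quasi-likelihood, filterByExpr, Benjamini-Hochberg), with DESeq2 1.42.0 as an alternative, in R 4.3.3. Isoforms with at least 10 reads over a pair of libraries, in genes with 20 or more reads in both libraries, were tested by Fisher's exact test (scipy 1.17.1, Python 3.11.15). Intervals were exact for levels and ratios, Wilson for shares and Newcombe for differences of shares. On simulated data with the means of these libraries, edgeR recovered 185 of 200 genes changed 8-fold (92.5%). Its test of differential isoform usage was run on simulated reads with sampling error alone. At an adjusted p below 0.05, without the 10-point rule, it recovered 34 of 200 genes (17%) whose leading isoform was lowered by 40 percent. The exact test was not simulated.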

Additional observations from a re-analysis of the deposited data

Results flagged for a closer look

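Several values differed between the comparison of Tut1f/f;Cre with Tut1f/f and that of the library labelled double knockout with the library labelled p53 knockout, by a Wald test on reads of the difference itself, with 1 library behind each genotype. They are given in percentage points, the first comparison before the second. The retained intron share of Clk1 differed by 44.2 and -12.2, that of Clk4 by 21.4 and -4.60 and that of Prpf4b by 29.7 and 8.83. In Clk1, the usage of Clk1-204 differed by 44.5 and -18.1, that of Clk1-201 by -17.9 and 16.7, and that of the variant of Clk1-212 by -19.4 and -1.40. In Clk4, Clk4-206 gave 19.7 and -5.72. In Srpk1, the variant of Srpk1-204 gave -24.5 and 10.5, and the isoform named by a read gave 13.0 and -10.5. In Prpf4b, Prpf4b-206 gave 29.7 and 8.83, Prpf4b-208 -1.47 and 3.48, and Prpf4b-210 -25.6 and -11.0. Among all genes, 28.5% of retained intron shares and 12.6% of isoforms differed by this test. The comparisons also differ in the Cre mRNA of their controls and in the direction of sex-linked reads, whose part was not tested.

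Reads at positions inside a gene that name no gene lie outside the gene and isoform counts tested above, and for 5 of the 7 genes with enough of them they were past 2-fold higher than in Tut1f/f. Their log2 ratios to Tut1f/f, in Tut1f/f;Cre, the library labelled p53 knockout and the library labelled double knockout, were 1.39, 1.72 and 1.90 for Clk2, 2.59, 2.62 and 2.81 for Srpk1, 1.95, 2.02 and 1.73 for Srpk2, and 1.98, 1.78 and 1.92 for Prpf4b. Clk4 gave 1.64 and 1.95 in the first 2 of these. The same rule was met by 65.6%, 60.4% and 58.6% of 6484 genes, so the genes described here lie close to the background.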

How the results depend on the processing

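No paired analysis was possible because there was 1 library per genotype and the labels carry no replicate numbers. Among counts of genes or isoforms called, 42 alternatives stayed within 1.5 times the count given and 11 did not. Many of the 42 were counts of 0 that stayed at 0, as in edgeR's tests, and say little about the processing. No value changed sign after being called. With a minimum of 20 points, called isoforms were 4 in place of 10 in Tut1f/f;Cre against Tut1f/f, 5 in place of 8 for the library labelled p53 knockout against Tut1f/f, and 0 in place of 2 between the libraries labelled double and p53 knockout, beside 5.09%, 5.50% and 0.544% of all isoforms. In that last pair, higher read minimums (20 per isoform, 50 per gene and library) gave 4 and plain Ensembl transcripts only gave 4, with Clk1-204 and Pnisr-211 gained in both and 2.57% and 3.28% of all isoforms called in place of 1.4%, and Tut1f/f as the control gave 8. For retained intron shares in the same pair, transcripts chosen by exon structure gave 1 in place of 0, Clk1 at -18.7 points, and Tut1f/f as the control gave 3. With library totals, 1 gene in place of 2 was past 2-fold in the library labelled p53 knockout against Tut1f/f, since Clk3 moved to -0.92. Leaving out 1 library in turn gave 0 to 4 isoforms and 0 to 3 retained intron shares called for Tut1 status by edgeR, with 4 and 3 without the library labelled p53 knockout. Counting processed transcripts as retained intron left 3 shares called in Tut1f/f;Cre against Tut1f/f, with Pnisr in place of Prpf4b. The cause of these changes was not tested. Clk2, with 6 to 20 reads, and retained intron reads of Srpk1 and Srpk2, with 10 or fewer per library, are limited by depth.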
